A study of Saccharomyces cerevisiae with 8 samples.

Results

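The *HPRT1R* locus is a synthetic DNA of 101 kb that holds the human *HPRT1* locus written backwards, base by base and without complementing it, so that it keeps the base composition and repeats of the human sequence but codes for nothing known. Its accessibility was compared between cells of budding yeast that carried it as an episome and cells that carried it in a chromosome. The members are all peaks called on the separate reference sequence that holds the locus and its vector, in 4 of the 8 libraries of the series. They number 183 of the 4757 peaks in the 4 lists, 176 of them starting in the locus and 7 in the vector.

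All strains were BY4741 derivatives, with the alleles his3Δ1, leu2Δ0, met15Δ0 and ura3Δ0. In the episome strain the locus sat in an assembly vector with a yeast centromere, a replication origin and *LEU2*, and cells were kept in SC-Leu medium. In the integrated strain Cre recombinase had moved the locus without its vector into a landing pad at *YKL162C-A* on chromosome XI, and cells grew in YPD. Each strain was assayed by ATAC-seq in 2 independent clones, n = 2 per context throughout, and context and medium cannot be told apart.

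ATAC-seq uses a transposase that cuts and tags DNA where nucleosomes leave it exposed, and a peak marks a place where more fragments pile up than in the DNA around it. In yeast such places are mostly the nucleosome-depleted stretches before genes. Stiff runs of A or T and bound general regulatory factors are known to keep nucleosomes away there. A DNA with no evolved yeast genes shows where such openings form on a sequence that was never selected for them. A centromeric episome can be present in more copies per cell than a chromosomal locus, and an extra copy adds fragments to peaks and to the DNA between them alike.

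The letters of the first 399 bases are at hand for 27 of the 28 segments from which the locus was built, and these segment starts were placed on the locus by the listed overlaps. The placement put the arms of the one insertion oligo pair found in a segment start exactly at position 21797, the position in its name. That pair lies in segment 7. The row of segment 8 was not used here, so positions from segment 9 on rest on the length of the locus and the listed overlaps, and their placement was not checked in this way. The sequences shown are 151-base windows around the mean episomal summit of the regions for which the letters suffice, with 1 window at the single integrated peak that no episomal peak meets, 1 at the most GC-rich segment start and 1 at the segment start farthest from any peak. All are written 5′ to 3′ on the strand of the synthetic reference. Capitals mark the 10-base word found in the largest number of segment starts on either strand, AGGGTCGATG or CATCGACCCT. Read backwards, the first of these is GTAGCTGGGA, a stretch of the human Alu repeat.
First region of the locus, kept after integration, 166 to 316: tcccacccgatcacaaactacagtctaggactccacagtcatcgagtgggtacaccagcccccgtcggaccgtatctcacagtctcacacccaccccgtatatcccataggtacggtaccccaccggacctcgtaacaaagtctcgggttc
Region from 10868 to 11273, kept, window 10939 to 11089: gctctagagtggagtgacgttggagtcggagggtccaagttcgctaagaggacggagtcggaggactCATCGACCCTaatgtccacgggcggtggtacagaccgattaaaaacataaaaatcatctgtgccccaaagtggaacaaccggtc
Region from 47510 to 47824, kept, window 47582 to 47732: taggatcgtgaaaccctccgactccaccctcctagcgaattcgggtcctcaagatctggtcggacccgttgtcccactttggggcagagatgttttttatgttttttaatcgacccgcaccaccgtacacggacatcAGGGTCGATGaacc
GC-rich window 69743 to 69893, within the episomal peaks of the region from 68895 to 70324 and in no integrated peak: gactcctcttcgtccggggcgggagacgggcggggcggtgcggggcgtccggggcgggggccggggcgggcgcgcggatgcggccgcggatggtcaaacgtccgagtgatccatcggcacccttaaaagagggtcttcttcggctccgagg
Peak of integrated clone 1 alone, window 73510 to 73660: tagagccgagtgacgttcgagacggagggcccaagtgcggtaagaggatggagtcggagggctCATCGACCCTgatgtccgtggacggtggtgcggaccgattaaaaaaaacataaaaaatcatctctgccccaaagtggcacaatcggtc
No peak within 1034 bp, window 95157 to 95307: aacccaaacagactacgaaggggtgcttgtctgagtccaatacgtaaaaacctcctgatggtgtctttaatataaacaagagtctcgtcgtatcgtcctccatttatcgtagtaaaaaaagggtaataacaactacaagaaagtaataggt
Region from 98927 to 99100, lost after integration, window 98945 to 99095: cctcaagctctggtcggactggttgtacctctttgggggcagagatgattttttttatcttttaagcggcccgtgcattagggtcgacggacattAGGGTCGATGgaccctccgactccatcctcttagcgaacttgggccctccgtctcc

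Of these windows, the first region had 57.0% GC and no run of 5 or more A or T. The GC-rich window was 73.5% GC with 23 CG dinucleotides and lies between the 2 peaks of integrated clone 1, and the window without a peak was 38.4% GC. A window not shown, 54976 to 55126 at a peak of episomal clone 1 alone, was 33.1% GC with 5 runs of 5 or more A or T. The shared word was present in 9 of the 27 segment starts (33.3%), and 7 of these 9 overlapped a peak of at least 1 library, against 6 of the 18 without it. Peaks of all libraries were met by 3 of the 9 and 3 of the 18. Median GC content was 42.1% with the word and 38.5% without it. The 14 segment starts with no peak had a median GC content of 35.7% (25.3% to 47.9%), against 45.4% (38.1% to 69.9%) in the 13 with a peak. Runs of 5 or more A or T did not set these groups apart, with a median of 3 per segment start in both, and 17 of the 27 middle windows (63.0%) held at least 1. Fragments from near-identical Alu copies may be placed on any of them, GC content also moves with recovery in PCR, and the part of either in these counts was not tested.

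The lists held 1114 and 1085 peaks in the 2 episomal clones and 1337 and 1221 in the integrated ones. For each peak the number of fragments at the summit and the local background, the number expected there from the surrounding 10 kb, were solved from the fold enrichment and the p-value, which worked for all 183 members. The genome-wide background was 5.63 and 5.82 fragments in the episomal clones and 5.42 and 4.97 in the integrated clones, so the 4 libraries were of similar depth. The median nuclear peak held 23 fragments at its summit in each of the 4 libraries.

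Along the locus the episomal libraries were far deeper. The median local background at locus peaks was 55.6 and 47.3 fragments in the episomal clones against 8.41 and 7.74 in the integrated clones, which is 9.87, 8.12, 1.55 and 1.56 times the genome-wide value of the same library. At the 28 regions with peaks in all 4 libraries the episomal background was 4.63 to 8.30 times the integrated one, with a median of 6.18. The highest ratios, 8.24 and 8.30, were in the regions from 96465 to 96884 and from 98020 to 98504. On the reference sequence these lie nearest the vector, which the integrated strain lacks. In the circular episome the first region of the locus, with the lowest ratio of 4.63, also lies next to the vector. The part of the vector in these ratios was not tested. The course along the locus was alike in both contexts. The background was low at the start, highest near 20 kb, lower around 50 kb and high again near 80 kb. At the start the reference sequence begins, so part of the surrounding 10 kb is missing there. The Spearman rho between contexts was 0.79 over the 28 regions, which share the sequence and its base composition. A higher copy number and a higher accessibility per copy cannot be told apart in these values. From DNA sequencing the paper estimated copy numbers, and it reports deeper ATAC-seq coverage of episomal loci also after correcting for them. Those estimates were not used here.

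**Figure D1:**
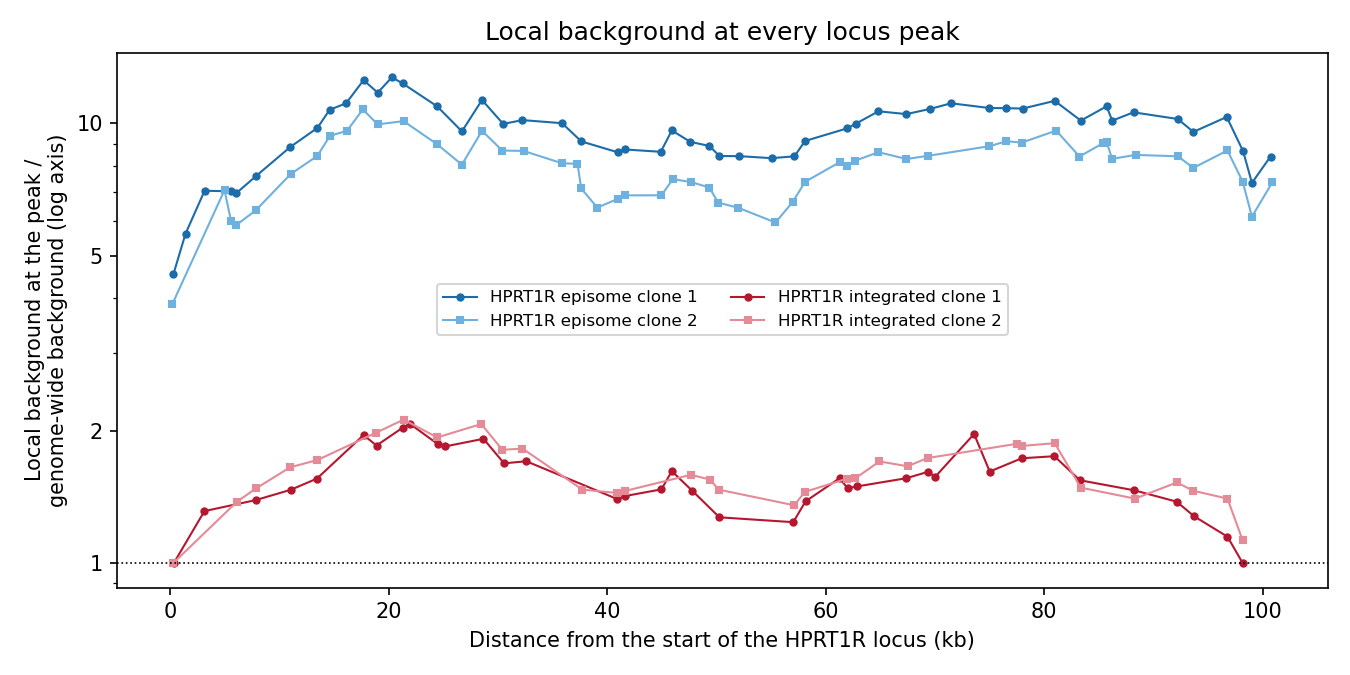
Local background at every peak of the *HPRT1R* locus, divided by the genome-wide background of the same library (log axis), against the distance from the start of the locus in kb, 1 line per clone. The 2 episomal lines run far above the 2 integrated ones, with medians of 9.87 and 8.12 against 1.55 and 1.56, and all 4 have their high near 20 kb and a second high near 80 kb.

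The episomal locus carried 52 and 53 peaks and the integrated locus 38 and 33, a difference of 17 in the means (52.5 ± 0.707 against 35.5 ± 3.54, SD, n = 2 clones each). Peaks covered 24.2% and 23.2% of the episomal locus but 11.3% and 10.9% of the integrated locus. The median summit held 147 and 126 fragments in the episome and 27 and 30 after integration. Peak widths had medians of 412 and 375 bp in the episome and 263 and 278 bp after integration, where the nuclear medians were 280, 303, 292 and 309 bp in the same order. In all of these measures the contexts did not overlap. With peaks of a −log10 q of at least 5 only, the difference in median width was 19.5 bp in place of 123 bp and the contexts overlapped, and the difference in peak number was 31.5. The height over the local background ran the other way, with median fold enrichments of 2.47 and 2.73 in the episome and 2.92 and 3.32 after integration. The difference in the means was -0.51, and -0.31 without integrated clone 2. The lowest fold called was 1.60 and 1.74 in the episome and 2.20 and 2.29 after integration, so these fold medians cover unlike sets of peaks. Over the 28 regions with peaks in all 4 libraries the median log2 difference in fold was 0.07. The exact two-sided permutation test over 4 libraries gave p = 0.333 for each of these 5 measures, the smallest value it can give, so this test cannot pass a threshold of 0.05 with 2 clones a context.

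**Figure D2:**
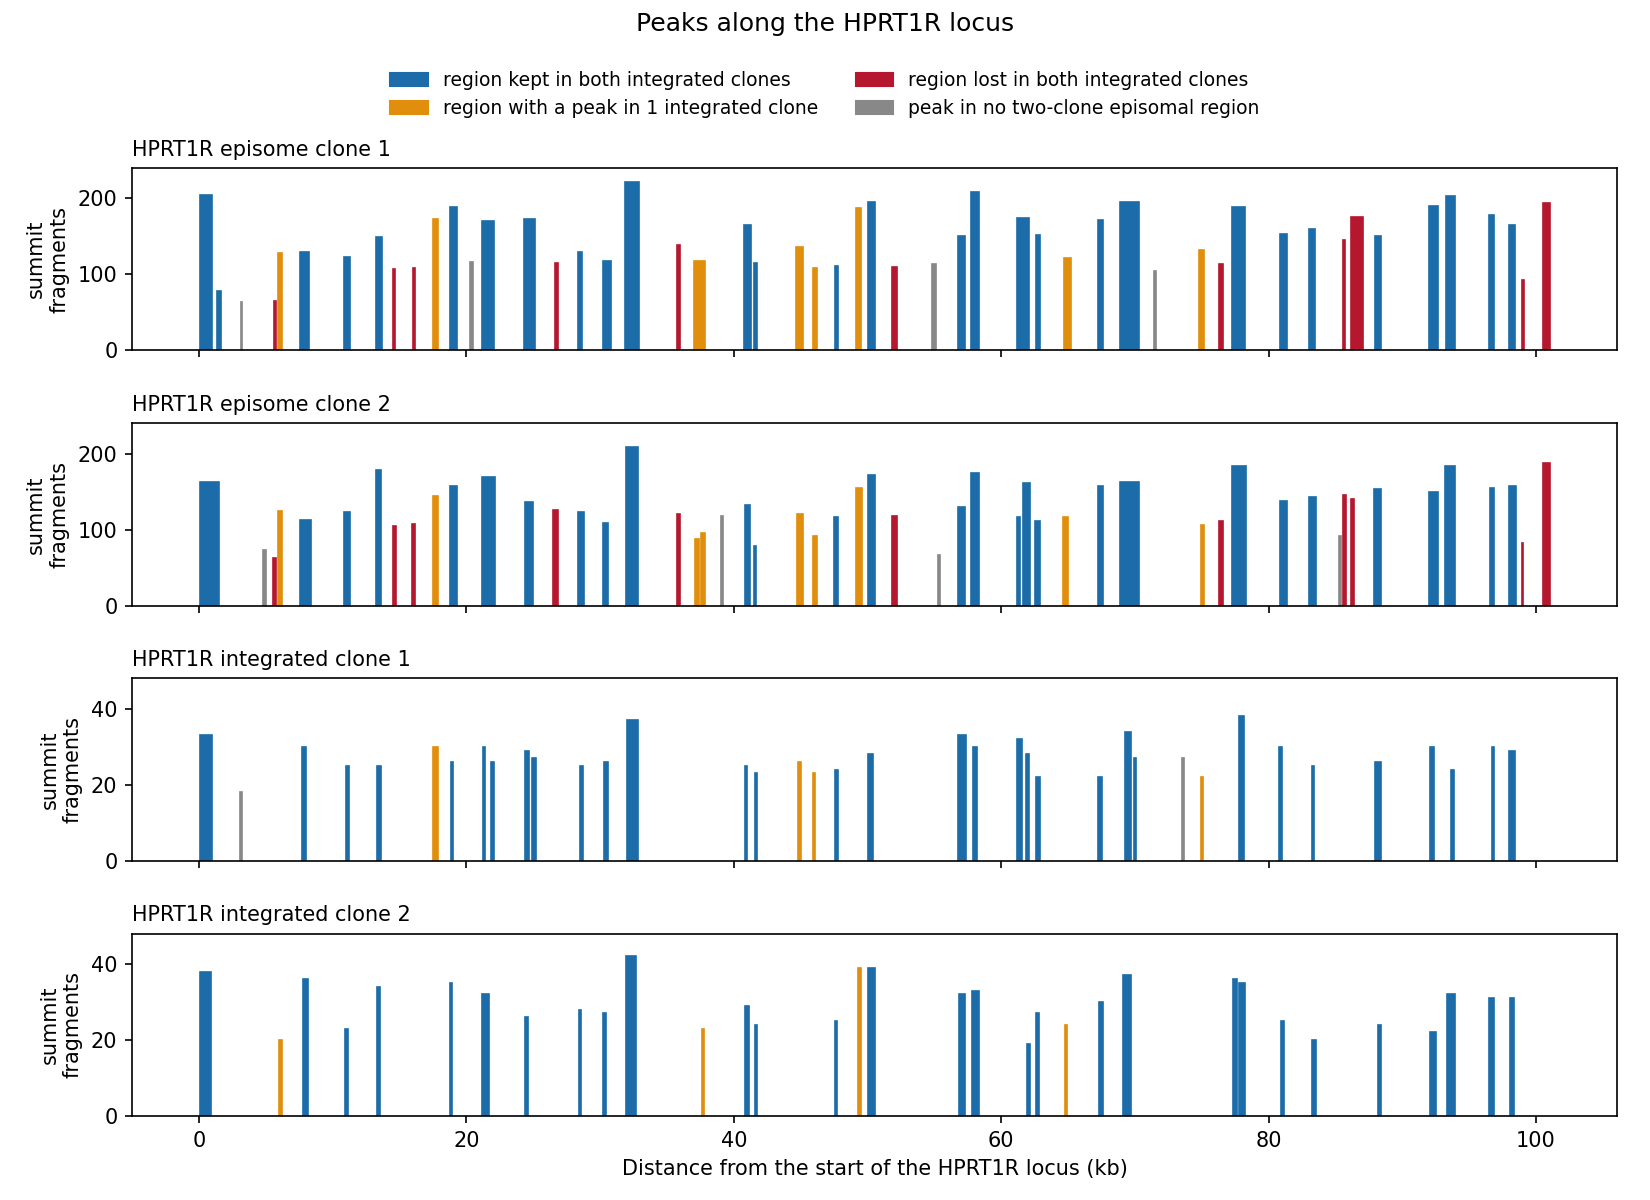
Peaks along the *HPRT1R* locus in the 4 libraries, with the distance from the start of the locus in kb on the x axis and the fragments at the summit on the y axis, each bar as wide as its peak. Colours give the fate of the episomal region. The y axes differ, since episomal summits hold 62 to 222 fragments and integrated ones 18 to 42, and kept regions are found along the whole locus.

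To follow single places, overlapping peaks of the 2 episomal clones were joined, which gave 47 episomal regions with a peak in both clones. After integration, 28 of the 47 (59.6%) had a peak in both clones and are called kept, 8 (17.0%) had a peak in 1 clone, and 11 (23.4%) had none and are called lost. In the nuclear chromosomes of the same libraries, 753 regions were joined in the same way, of which 87.6% were kept, 10.6% had a peak in 1 integrated clone and 1.73% had none. The share of lost regions was therefore larger in the locus than in the nuclear chromosomes, whose background changed little between the strains. That of the locus was lower after integration. Folds of lost regions ran from 1.69 to 4.17 in the locus and from 2.38 to 3.27 in the nuclear chromosomes, so the shares cover unlike sets of peaks. With regions joined by a reciprocal overlap of at least 50%, 15 of 45 were kept and 18 lost. With peaks of a −log10 q of at least 5 only, 10 of 46 were kept and 24 lost, and with the 33 strongest peaks of every library 22 of 29 were kept, 4 had a peak in 1 clone and 3 were lost.

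Kept regions lay all along the locus. Each 10-kb stretch up to 100 kb held 3 to 6 episomal regions, of which 1 to 4 were kept, and no stretch lost all of its regions. Between 60 and 70 kb 4 of 5 regions were kept and none was lost, and between 90 and 100 kb 4 of 5 were kept. Between 70 and 80 kb 1 of 3 was kept. The longest stretch without a peak was 3528 and 4630 bp in the episomal clones and 8015 and 7596 bp in the integrated clones. These last stretches were not at the same place, following position 32839 in integrated clone 1 and 69726 in clone 2.

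The kept regions were led by the one from 31882 to 32877, which had the most fragments in the episomal clones and, on average, in the integrated ones. Its summit held 222 and 209 fragments in the episome and 37 and 42 after integration, at 3.83 and 4.08 fold over the local background in the episome and 3.71 and 4.27 fold after integration. The folds of the contexts overlapped. Its peaks spanned 996 and 929 bp in the episome and 827 and 794 bp after integration.

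Next came the region from 77259 to 78322, with 189 and 184 fragments in the episome and 38 and 36 after integration, and folds of 3.07 and 3.45 against 3.75 and 3.59. Both integrated folds were above both episomal ones here. The region from 68895 to 70324 held 195 and 162 fragments in the episome and 34 and 37 after integration, at 3.17 and 3.25 fold against 3.59 and 3.95. It overlaps the segment start with the highest GC content of the 27, 69.9% over 399 bases with 55 CG dinucleotides.

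The first region of the locus, from 33 to 1672, tied with it at a mean of 35.5 integrated fragments. It held 204 and 162 fragments in the episome and 33 and 38 after integration. Its folds of 7.73 and 6.90 in the episome and 5.30 and 6.53 after integration were the highest of the locus in every library. The local background there was the lowest of the locus in the episome, 25.5 and 22.6 fragments. After integration it was 5.42 and 4.97 fragments, the genome-wide value below which it is not set, which integrated clone 1 also had at the summit at 98184. The region lies where the reference sequence begins, so part of the surrounding 10 kb holds no sequence. The part of this and of the low background in the high fold was not tested.

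Over the 28 kept regions the summit fragments, divided by the genome-wide background of each library, were lower after integration by a median log2 difference of -2.31 (-2.66 to -1.74). The median of the 651 nuclear regions measured in the same way was 0.25, so that the locus stood at -2.56 relative to it. Divided by the local background instead, the median log2 difference in fold was 0.07 (-0.31 to 0.46), with an SD of 0.081 between the pairs of clones. The lowest value was that of the first region, and the highest that of the region from 96465 to 96884, near the vector on the reference sequence. The nuclear median was 0.20, so that the locus stood at -0.13 relative to it. The counting error of a single log2 difference was 0.18 to 0.24 (SE). Fold was higher in both integrated clones than in both episomal clones at 11 of the 28 regions, against 42.6% of nuclear kept regions, and lower in both at 1 of the 28, against 4.09%. Kept regions are those called in both integrated clones, where the lowest fold in the locus was 2.20 and 2.29 against 1.60 and 1.74 in the episome. The part of this choice in the fold differences and counts was not tested.

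The order of the regions was similar in both contexts. Mean fold in the episome and after integration had a Spearman rho of 0.79 over the 28 regions, and 0.77 without the first region. Between the 2 episomal clones it was 0.87 and between the 2 integrated clones 0.63. The regions share one sequence and the clones of a context one medium, and peaks in the integrated locus had to pass the caller's threshold, so these values describe the kept regions only.

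**Figure D3:**
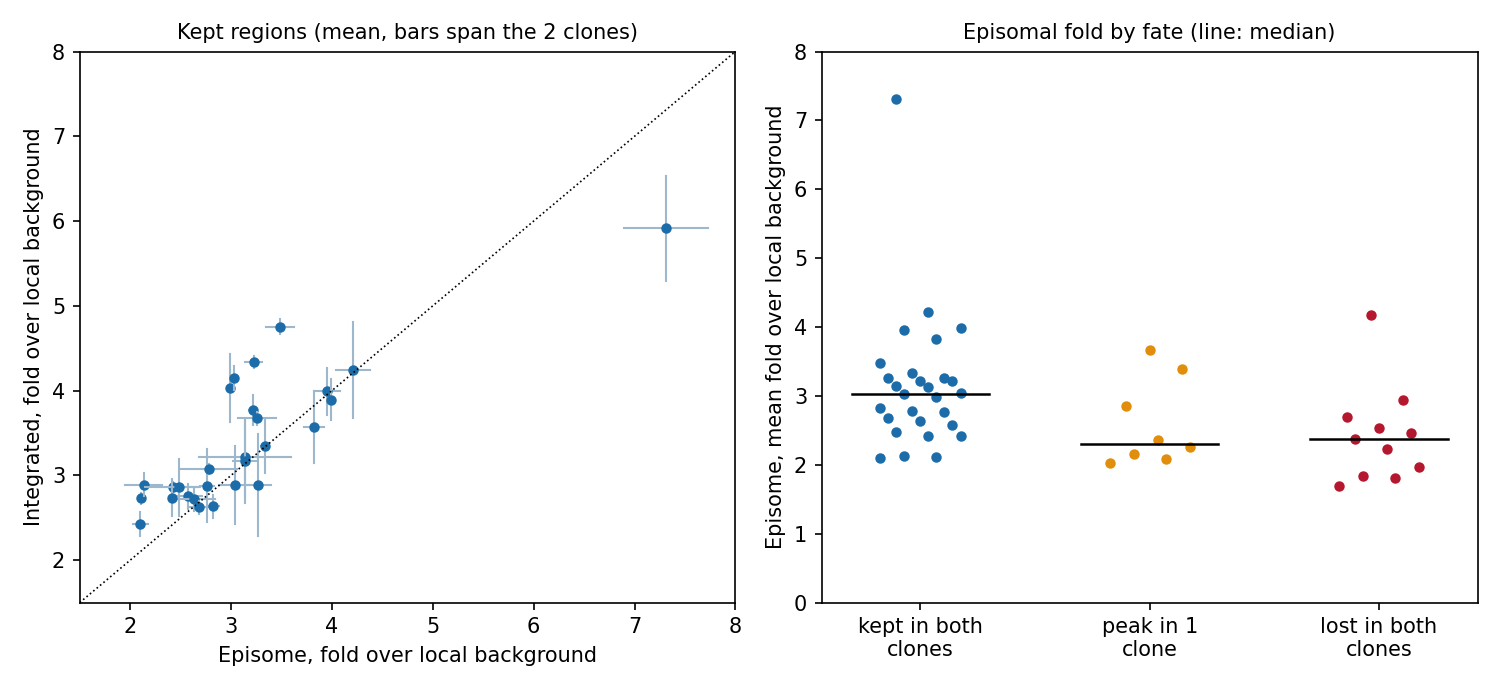
Left, fold over the local background at the 28 kept regions, episome on the x axis and integrated on the y axis, points at the mean and bars spanning the 2 clones, with a dotted line of equality. Right, mean episomal fold of the regions by fate, with a line at the median. Kept regions lie on both sides of equality, 21 of 28 above it, and the first region of the locus stands apart at an episomal mean of 7.31, while the medians by fate are 3.03, 2.31 and 2.38.

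At kept regions the highest summits of an episomal and an integrated clone were a median of 68.3 bp apart, against 39.5 bp between the episomal clones and 74.0 bp between the integrated clones. At 20 of the 28 kept regions at least 1 episomal and 1 integrated summit lay within 10 bp of each other, taking the closest of 4 pairs, against 50.2% of nuclear kept regions. Both integrated summits were within 10 bp at 3 of the 28 (23% of nuclear regions), and all 4 summits were within 100 bp at 9 (31.8%). The region from 41513 to 41709 was the tightest, with its 4 summits at 41616, 41616, 41613 and 41632. The nuclear median between contexts was 77.5 bp. At 5 of the 47 episomal regions the summits of both episomal clones were at the same base, and at 21 they were within 10 bp.

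Peaks at kept regions were narrower after integration. The summed peak width in a kept region had a median of 503 bp in the episome and 339 bp after integration, and the median ratio was 0.60 (0.27 to 1.10). The integrated mean was below the episomal mean at 27 of the 28 regions. Both integrated clones were below both episomal clones at 23 of the 28 (82.1%), against 9.55% of the nuclear kept regions, whose median ratio was 1.09. The exception to the narrowing was the region from 56793 to 57291, with 499 and 493 bp in the episome and 592 and 498 bp after integration. The strongest narrowing was in the region from 18742 to 19328, from 565 and 584 bp to 149 and 166 bp. In 21 of the 28 regions the integrated peaks lay wholly within the episomal region. Local background, summit fragments and width were all lower after integration, and the part of the other two in the width was not tested.

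**Figure D4:**
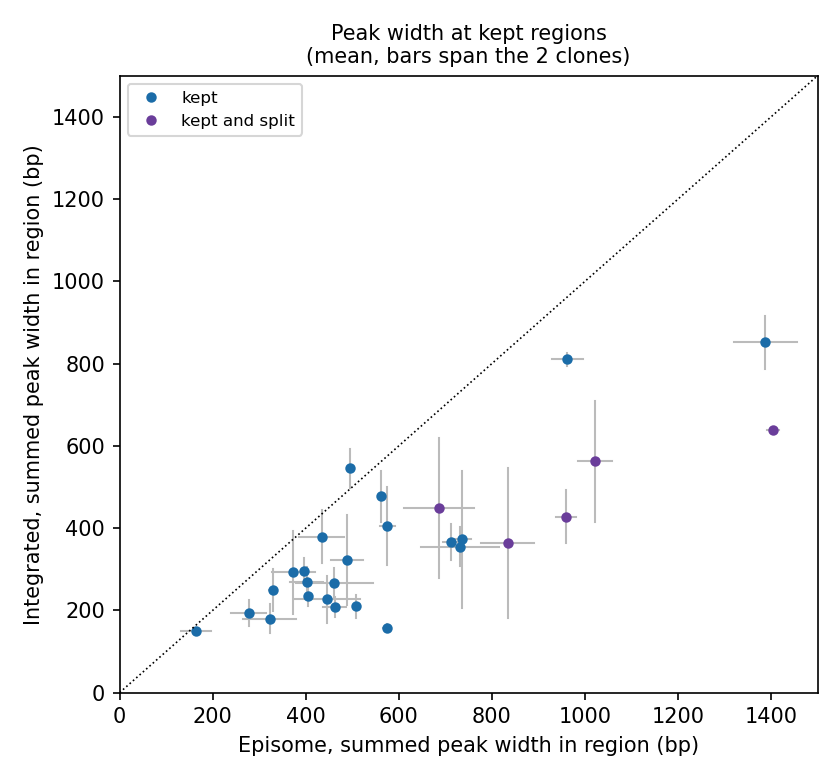
Summed peak width at the 28 kept regions in bp, episome on the x axis and integrated on the y axis, points at the mean and bars spanning the 2 clones, with a dotted line of equality. All points but 1 lie below the line, and the 5 regions that split (purple) are among the wider episomal ones, with episomal means of 687 to 1405 bp.

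A region was called split where 1 episomal peak was overlapped by at least 2 separate peaks of an integrated clone. This held for 5 of the 47 regions (10.6%), all of them kept, against 4.91% of nuclear regions. Between the episomal clones themselves, 3 of the 47 regions (6.38%) had 2 peaks in 1 clone against 1 in the other. Median peak widths in the episomal clones were 412 and 375 bp in the locus and 280 and 303 bp in the nuclear chromosomes, so the shares cover unlike peaks. The widest was the region from 68895 to 70324, covered by single peaks of 1418 and 1392 bp in the episome. Integrated clone 1 had a peak from 69252 to 69726 with 34 fragments and another from 69931 to 70087 with 27. Integrated clone 2 had only 1, from 69080 to 69726, which ended at the same base as the first of these.

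The region from 77259 to 78322 was single in the episome, with 985 and 1058 bp, and split in integrated clone 2 into 77323 to 77617 with 36 fragments and 77825 to 78239 with 35. Integrated clone 1 kept the right piece alone, from 77782 to 78195 with 38 fragments. Its summit at 77945 was 1 of 3 within a few bases, beside 77944 in integrated clone 2 and 77943 in episomal clone 2. The other 3 split in integrated clone 1 only. The region from 21139 to 22125 left peaks from 21250 to 21415 and from 21837 to 22033, with 30 and 26 fragments, and clone 2 kept a single peak of 492 bp.

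The region from 24342 to 25103 left peaks from 24379 to 24667 and from 24868 to 25197, with 29 and 27 fragments. The region from 61185 to 62132 left peaks from 61198 to 61545 and from 61877 to 62073, with 32 and 28 fragments. It had already been 2 peaks in episomal clone 2, from 61185 to 61429 and from 61601 to 62132, and integrated clone 2 kept only the right one, with 19 fragments. No region split in both integrated clones. Without integrated clone 1 a single region counted as split.

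Lost regions were mostly among the lower episomal peaks. Ordered by mean episomal fold, the 16 highest regions (3.14 to 7.31) comprised 13 kept, 2 with a peak in 1 clone and 1 lost, the 16 in the middle 11, 1 and 4, and the 15 lowest (1.69 to 2.41) 4, 5 and 6. Median episomal fold was 3.03 for kept, 2.31 for one-clone and 2.38 for lost regions, and median region width was 535, 410 and 277 bp.

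The lost region with the highest fold was the last of the locus, from 100527 to 101018, with 194 and 188 fragments and 4.03 and 4.31 fold. It crosses from the locus into the vector, its summit in episomal clone 2 at 100901 lies in the vector, and the sequence on that side was not carried into the integrated strain. Without the peaks across this junction 10 regions were lost.

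The lost region next by fold, from 86173 to 87052, is the highest that lies wholly within the locus. It had 175 and 140 fragments at 3.03 and 2.85 fold, its summit at base 86224 in both episomal clones, and widths of 880 and 240 bp. The region from 51868 to 52207 followed with 110 and 118 fragments at 2.29 and 3.10 fold. Neither had a peak in either integrated clone. The region from 98927 to 99100, whose sequence is shown above, had 92 and 82 fragments at 2.20 and 2.26 fold and is the narrowest of the 47, with summits at 99020 and 99019.

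A check asked whether the summit count of a lost region would have reached the weakest p-value called in the integrated locus. It used the mean episomal fold and the integrated background interpolated between neighbouring peaks. For the regions from 98927 to 99100 and from 100527 to 101018, past the last integrated peak, the background of that last peak was used. Width was not part of it, and the narrowest locus peaks called were 132 and 144 bp in integrated clones 1 and 2. For the region from 86173 to 87052 the same fold would give 25.8 and 23.0 fragments in integrated clones 1 and 2, where 20 and 19 reach that p-value. For the region from 51868 to 52207 it would give 20.1 and 21.0 fragments, where 18 and 19 were needed. The regions from 26465 to 26871, 35724 to 36000 and 85574 to 85778 also reached the limit in both clones, by at most 2.58 fragments. With the junction region, 6 of the 11 lost regions reached it in both clones and 5 in neither. No counting error was set on these margins, so they do not show that a peak would have been called.

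The 5 below the limit were those from 5540 to 5742, 14505 to 14715, 15963 to 16186, 76313 to 76611 and 98927 to 99100, with expected counts of 12.0 to 19.1 fragments. Their loss was not detectable at this depth as a change in fold. The limit is no sharp border, since 3 of the 28 kept regions were also below it in both clones. Taking only episomal peaks whose fold would reach the lowest count called in the integrated locus left 37 regions, of which 7 were lost and 5 had a peak in 1 clone.

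**Figure D5:**
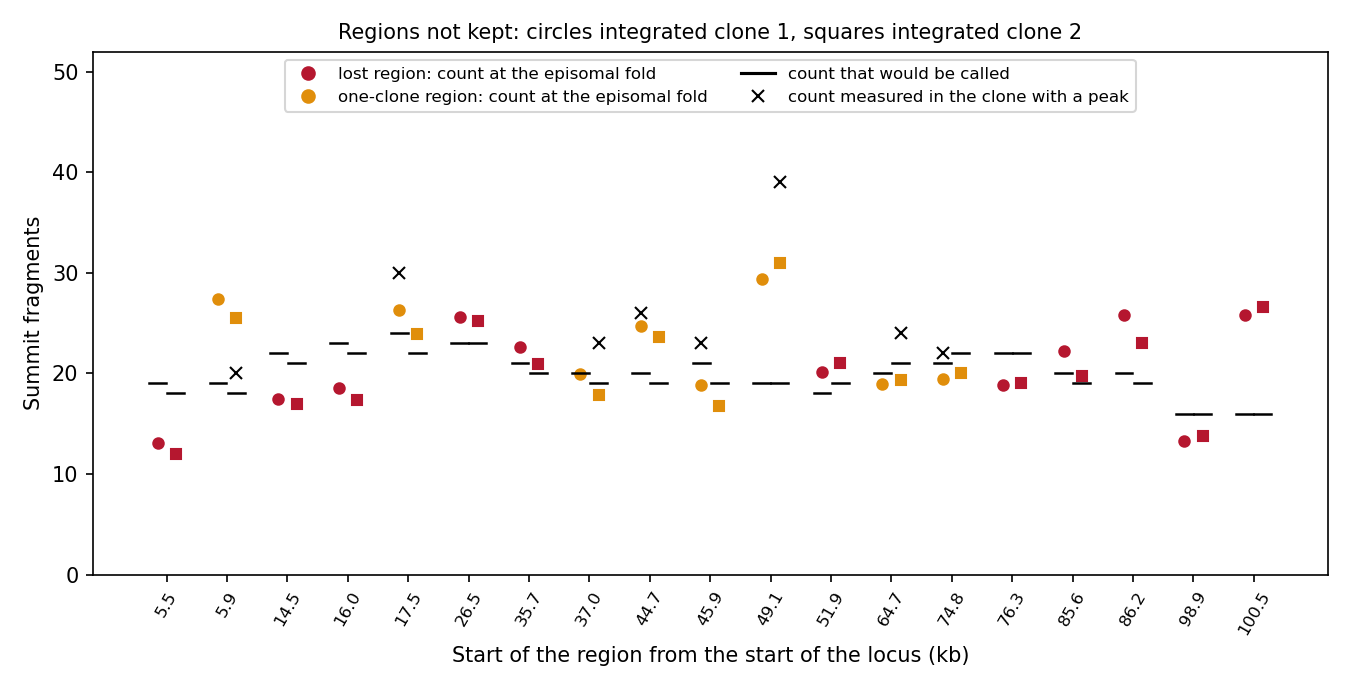
The 19 episomal regions that were not kept, by their start in kb from the start of the locus. Coloured points give the summit fragments that the mean episomal fold would yield at the integrated background, circles for integrated clone 1 and squares for clone 2. Black lines give the count that reaches the weakest p-value called in the locus of that clone, without regard to width. Crosses give the count measured where a clone had a peak. In 10 of the 19 regions the points of both clones reach the line.

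The 8 regions with a peak in 1 integrated clone were divided evenly, 4 in clone 1 and 4 in clone 2. The highest was the region from 49125 to 49570, with 187 and 155 fragments in the episome at 3.68 and 3.66 fold. It had 39 fragments at 4.59 fold in integrated clone 2, level with the region from 50020 to 50582 and below only the region from 31882 to 32877 in that clone by fragments, and no peak in clone 1. The same fold would have given 29.4 fragments in clone 1, where 19 were needed. Its neighbour from 50020 to 50582 was kept, with 195 and 172 fragments in the episome and 28 and 39 after integration.

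The region from 5912 to 6184 had 128 and 124 fragments in the episome with the summit at base 6054 in both clones, and 20 fragments in integrated clone 2 alone. Its neighbour from 5540 to 5742 was lost, after 65 and 62 fragments in the episome. The region from 44680 to 45170 had 136 and 120 fragments in the episome and 26 in integrated clone 1, whose summit at 44968 was next to that of episomal clone 2 at 44967.

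By overlap of at least 1 bp no region was gained. All 28 regions with peaks in both integrated clones overlapped an episomal region, so that 0 were absent from the episome, against 10.5% of the 910 integrated nuclear regions. These shares differ in detection. The locus was deeper in the episomal libraries, whose peaks covered 24.2% and 23.2% of it, while the genome-wide background was similar in both strains. A reciprocal overlap of at least 50% gave 6 regions absent from the episome, and the 33 strongest peaks of every library gave 2. All 33 peaks of integrated clone 2 overlapped peaks of both episomal clones. In integrated clone 1, 36 of 38 did so for episomal clone 2 and 37 for episomal clone 1. The single integrated peak without an episomal counterpart ran from 73529 to 73660 in clone 1, with 27 fragments at 2.40 fold, and its window is shown above. The 8 episomal peaks found in 1 clone only had 64 to 118 fragments and 1.60 to 3.09 fold, and 1 of them, from 3104 to 3248, was met by a peak of integrated clone 1.

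In other strains of the study a *Sphis5* cassette, the fission yeast gene for a histidine biosynthesis enzyme that complements *his3*, was inserted at 4 positions of *HPRT1R*, and these libraries come from cells without it. Positions 21797 and 78135 lay inside an episomal region, and 37903 and 88545 lay 91 and 106 bp past one. Peaks covered 24.2% and 23.2% of the locus in the episomal clones. Position 21797 lies inside the split region from 21139 to 22125, between the 2 peaks of integrated clone 1. The sequence there is shown with the first base after the junction in capitals.
Position 21797, window 21736 to 21858: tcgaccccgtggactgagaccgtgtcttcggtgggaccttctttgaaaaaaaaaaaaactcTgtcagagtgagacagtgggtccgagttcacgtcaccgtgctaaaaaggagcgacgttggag

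Position 78135 lies inside the split region from 77259 to 78322, 94 and 192 bp from the nearest episomal summits and 190 and 191 bp from the integrated ones. Position 88545 lies 106 bp past the kept region from 87914 to 88439, which had 151 and 153 fragments in the episome and 26 and 24 after integration. Position 37903 lies 91 bp past the region from 37034 to 37812, which had 117 and 95 fragments in the episome, 23 in integrated clone 2 and no peak in clone 1. The nearest summit to it in integrated clone 1 was 3022 bp away.

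The vector carried 3 and 4 peaks in the episomal clones and 0 in both integrated clones, in which the vector is not present. The widest ran from 110585 to 113924 in episomal clone 1 with 246 fragments at 4.82 fold, and from 110612 to 113219 in clone 2 with 206 fragments at 4.92 fold. These summits, at 111976 and 111978, held more fragments than any peak of the locus in clone 1 and fewer than the locus's highest, 209, in clone 2. The other 2 shared peaks held 175 and 163 fragments with summits at 104164 and 104159, and 199 and 193 with summits at 106195 and 106193. The fourth peak of clone 2, from 113413 to 113604 with 83 fragments, overlapped the wide peak of clone 1.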

How the data were processed

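Accessibility was measured by ATAC-seq in 2 clones each of the *HPRT1R* episome and the integrated *HPRT1R* strain, grouped as labelled. The submitters' processing notes name bcl2fastq 2.20, Bowtie2 2.2.9, SAMtools 1.9, deepTools 3.5.0 and MACS2 2.1.0. The authors trimmed reads and aligned them to sacCer3, to which the locus and its vector had been added as 1 more sequence. They called peaks per library from whole read pairs with no control, with duplicates retained and no pooling of clones. Peaks were not shifted to cut sites as far as stated. Each deposited list holds, for every peak, a ratio (fold enrichment over background at the summit) and the significance as −log10 p-value and −log10 q-value, set against the background of that library.

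The whole fragment count N and local background λ were solved from fold = (N + 1)/(λ + 1) and the Poisson p-value, with a misfit of at most 0.001 accepted. The recovery and the sorting of regions were tested on simulated data. The files give no read totals, so the genome-wide background stands for depth, and errors cover counting only. PCR copies were kept, so fragments are not all independent molecules. Positions are 1-based on the synthetic reference, whose first 101 kb are the locus.

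Peaks matched with an overlap of at least 1 bp. A kept region needed a peak of each integrated clone, and where a region held several peaks of a clone the one with the most fragments gave its summit, count and fold. Libraries were compared with exact two-sided permutation tests over 4 libraries. Regions named are the 3 kept ones with the most integrated fragments (4 with a tie), the 3 lost ones with the highest episomal fold, the split regions, the first and last, those nearest the *Sphis5* positions and those with sequence at hand. Further regions were chosen after seeing their values. The members and lists were chosen with earlier results of these data known. Alternatives were −log10 q of at least 5 or 10, each clone left out, other overlap rules, equal numbers of peaks per library, other scalings and a replicate block. Sequences come from the study's list of synthetic segments. Python 3.11.15, NumPy 2.4.6, SciPy 1.17.1 and matplotlib 3.10.9 were used. Results from the *HPRT1* libraries were not used here.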

Additional observations from a re-analysis of the deposited data

How the results depend on the processing

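Of 122 recomputed values, 99 stayed within the limits set for them, 22 moved and 1 turned direction. The differences between contexts in number, cover, width, fragments and fold kept their sign under the alternatives run, but not their size. With a −log10 q of at least 5 the width difference was 19.5 bp in place of 123 bp, with an exact permutation p of 1, the difference in number 31.5 in place of 17 and that in fold -1.05 in place of -0.51. Leaving out each clone in turn gave fold differences of -0.71 to -0.31, the largest without integrated clone 1 and the smallest without integrated clone 2. The log2 difference of summit fragments at kept regions, -2.31, became 0.0714 with the local background as the scale, within its SD of 0.081 and -0.13 relative to the nuclear regions. With a −log10 q of at least 5, 10 regions were kept, 24 lost and 2 split, and the width ratio was 0.74. At 10 or more, 1 was kept, 28 lost and 0 split, of 36 regions. A reciprocal overlap of at least 50% gave 15 kept, 18 lost, 0 split and 6 integrated regions absent from the episome. Regions taken as bases in peaks of both clones gave 22 lost and 0 split of 50, where joined peaks gave 47 regions. Episomal peaks whose fold would reach the lowest count called in the integrated locus gave 7 lost and 5 with a peak in 1 clone. The 33 strongest peaks of every library gave 3 lost, 4 with a peak in 1 clone and 2 integrated regions absent from the episome, of 29 episomal regions. Leaving out each clone in turn gave 1 to 5 split regions, 0 to 1 absent regions and a width ratio of 0.57 to 0.65. The lowest split count came without integrated clone 1, and the absent region appeared without integrated clone 2. Leaving out the peaks across the vector junction was chosen after seeing the data and left 10 lost regions.

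The clones share only a number between contexts. The differences between clone 1 and clone 2 in the 2 contexts had a correlation of 0.03 over 28 regions, with only 2 pairs. With a replicate block the difference in peaks per library stayed at 17, with an exact p of 0.5, the smallest that flipping the signs of 2 pairs can give, and no call changed.

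Integrated summits of 18 to 42 fragments limit what can be seen there: at an episomal fold near 2 some regions were called in both clones, some in 1 and some in neither. With 2 clones a context the exact permutation test cannot pass 0.05.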
